A study of Mus musculus with 12 samples.

Results

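The proteasome subunits and assembly factors are the genes whose platform symbol is Psma, Psmb, Psmc, Psmd, Psme, Psmf or Psmg followed by a number. The rule used the symbol alone and no measured value. It found 47 genes among the 18193 genes with a probe set that names a single gene, read by 100 of the 45101 probe sets of the array. Of these, 45 lay above the filter on low signal and were tested. The other 2 were Psma8, a core subunit known from testis, at 6.08 to 9.42 log2 units over the 12 arrays, and Psmb11, the core subunit of the thymic cortex, at 5.60 to 8.81.

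The proteasome is the main protease of the cytosol and nucleus, and it breaks down proteins that carry ubiquitin chains, among them proteins exported from the endoplasmic reticulum (ER) when they fail to fold. Its core is a barrel of outer rings of alpha subunits (Psma), which form the gate, and inner rings of beta subunits (Psmb), which hold the proteolytic sites. A cap of ATPases (Psmc) and non-ATPase subunits (Psmd) binds the ubiquitin chain, cuts it off and threads the substrate into the barrel, while Psme proteins are alternative activators, Psmf1 binds and inhibits the core in vitro and Psmg proteins are chaperones of core assembly.

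The series measured the left ventricle of male C57BL/6 mice on 12 Affymetrix mouse arrays, 1 heart per array. The transgene of the TG mice is ATF6-MER, which joins ATF6, a transcription factor of the ER stress response, to a mutated estrogen receptor domain that tamoxifen can activate, and NTG mice are their littermates without it. Each genotype received tamoxifen or vehicle, which gives 4 groups of 3 arrays, from mice of about 30 weeks except TG tamoxifen 1, whose age is given as 40 weeks. All TG mice carry the fusion whether or not they received the drug, while its promoter, the dose and the time of treatment are not stated in the labels. The title of TG vehicle 3 gives vehicle and its treatment field gives tamoxifen, and it was kept where its title puts it.

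Esr1, the estrogen receptor gene that follows the fusion, read 16.66 to 18.25 log2 units on the TG arrays and 17.72 on the array labelled NTG tamoxifen 1, against at most 10.88 on the other NTG arrays. That array therefore goes against its label, and the counts of proteasome genes in comparisons with the NTG tamoxifen group are also given without it. Hspa5, an ER chaperone that ATF6 induces, read 18.37 to 18.47 on the TG tamoxifen arrays, 18.05 on the array labelled NTG tamoxifen 1 and 16.39 or less on the other arrays. TG vehicle 3, whose title and treatment field differ, read 15.94, beside 16.39 on TG vehicle 1 and 15.76 on TG vehicle 2. All 15 cardiomyocyte markers lay above the filter. Beta-actin, whose 3' signal over its 5' signal tracks RNA quality, gave ratios of 1.75 to 1.88 on the TG tamoxifen arrays, 1.32 to 1.68 on TG vehicle, 1.78 to 1.97 on NTG tamoxifen and 2.12 to 2.43 on NTG vehicle. Array medians of the deposited intensities lay between 648.5 and 833.8. The number of arrays, 3 a group, limits the precision.

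TG tamoxifen against TG vehicle gives the change of proteasome genes with the drug in TG hearts. It holds activation of the fusion together with any effect of tamoxifen itself, which this comparison cannot tell apart. At an adjusted p under 0.05, 10 of the 45 genes rose (22.2%, beside 10.4% of all 11166 genes tested): the core alpha genes Psma5, Psma3, Psma2 and Psma4, the inducible beta gene Psmb8, the cap genes Psmc6, Psmd14, Psmd11 and Psmd7, and the activator Psme3. The activator Psme1 and the assembly chaperone Psmg1 fell (4.44%, beside 14.4%). The largest rises were Psma5 at 2.94-fold and Psmd14 at 2.80-fold, and Psme1 was 2.38-fold lower.

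These 12 genes were 26.7% of the members tested, beside 24.8% of all genes, so the share that changed in either direction was near the background. The all-gene split moved with scaling, from 1166 higher and 1608 lower to 1542 higher and 1166 lower when arrays were centred on their medians, while the members stayed at 10 and 2 with that centring and were 9 and 2 with the deposited scaling, where Psmb8 missed. The median change was 0.10 over the members and -0.07 over all genes, and with median centring 0.28 and 0.03. Without the array labelled NTG tamoxifen 1 the members were again 10 higher and 2 lower, beside 29.3% of all genes (12.9% higher and 16.4% lower). Leaving out TG tamoxifen 1 left 5 members called, TG tamoxifen 3 left 7 and TG vehicle 2 left 6. The shares of all genes in these fits, and in those without a filter or with the mean of probe sets, are not given here. The lower counts therefore cannot be read as particular to the members. With no filter on low signal, which adjusts over more genes, 6 passed: Psma3, Psma5, Psmc6, Psmd14, Psme3 and Psmg1. With the mean of a gene's probe sets 7 passed: Psma2, Psma4, Psmc6 and Psmd14 were higher, and Psme1, Psmg1 and Psmf1 lower. The count was 0 with TG vehicle 3 moved to TG tamoxifen. There 0 genes of the whole array passed in limma and 10 members had an unadjusted p under 0.05. It was also 0 with the actin ratio as a covariate, where 5 genes of the whole array passed in limma and 7 members had an unadjusted p under 0.05. The ratio did not overlap between TG tamoxifen (1.75 to 1.88) and TG vehicle (1.32 to 1.68), so this fit cannot separate it from the group.

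**Figure D1:**
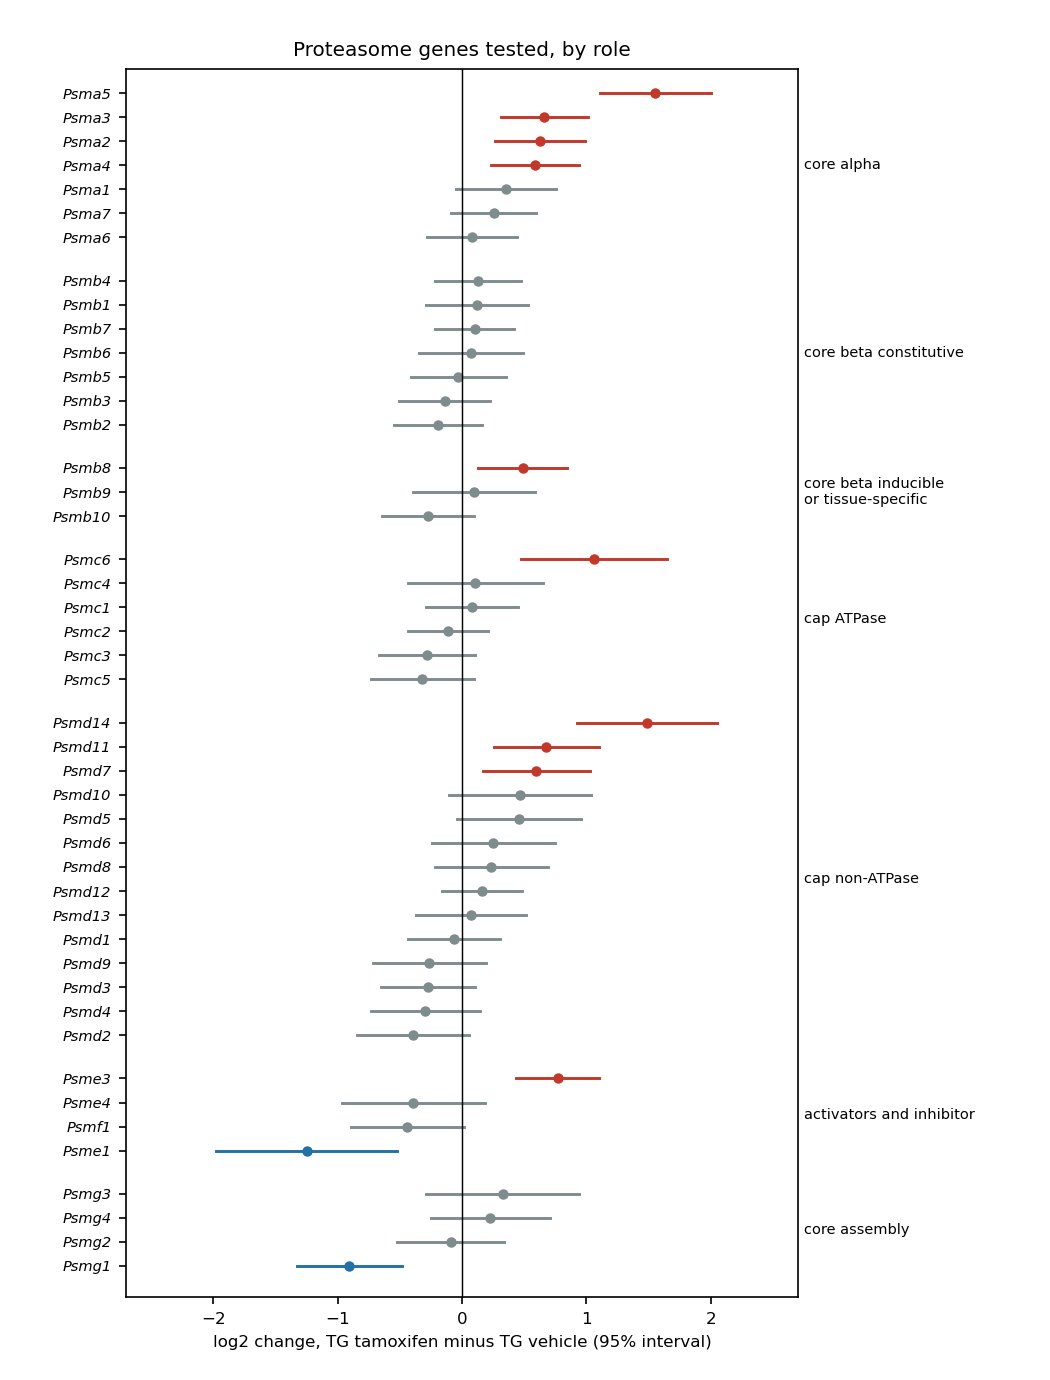
Log2 change (horizontal axis, TG tamoxifen minus TG vehicle, with 95% interval) of the 45 proteasome genes tested, grouped by role. Red marks the 10 genes that rose, blue the 2 that fell and grey those that did not pass; 4 of the red genes are core alpha genes, and the 7 constitutive beta genes lie between -0.19 and 0.13.

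All 7 core alpha genes tested lay above 0 in TG tamoxifen against TG vehicle, beside 45% of all genes. This also held with the deposited scaling and with median centring, where 4748 and 5771 of 11163 genes lay above 0. In the test 4 rose (57.1%, beside 10.4% of all genes). The median change of the 7 was 0.59. In the values that follow, the arrays of a group are in the order of their numbers, on the log2(intensity + 16) scale. Psma5, an outer-ring subunit, read 16.39, 16.15 and 16.33 in TG tamoxifen, 14.82, 14.67 and 14.72 in TG vehicle, 15.83, 15.05 and 15.17 in NTG tamoxifen and 15.22, 15.29 and 15.45 in NTG vehicle. The 3 TG tamoxifen arrays were the highest of the 12, the array labelled NTG tamoxifen 1 came next, and the TG vehicle arrays were the lowest. The change from TG vehicle was 1.55 ± 0.20 log2 units (SE, 3 arrays a group, adjusted p = 0.00172), and it passed in each of the 12 fits that left out 1 array. With the mean of its probe sets, which include a probe set below the filter at 0.04, it was 0.98 and did not pass (adjusted p = 0.0534).

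Psma3, whose tail lies beside the gate, read 15.94, 16.12 and 16.14 in TG tamoxifen, 15.48, 15.17 and 15.57 in TG vehicle, 15.49, 15.50 and 15.63 in NTG tamoxifen and 15.45, 15.63 and 15.69 in NTG vehicle. It was higher in TG tamoxifen than on any other array, by 0.66 ± 0.16 log2 units over TG vehicle (adjusted p = 0.0131), and with the mean of its probe sets it was 0.39 and did not pass (adjusted p = 0.119). Psma2, another ring subunit, read 15.77, 15.63 and 15.76 in TG tamoxifen, 15.22, 14.76 and 15.30 in TG vehicle, 14.76, 14.72 and 14.74 in NTG tamoxifen and 14.99, 15.01 and 15.08 in NTG vehicle. Its TG tamoxifen arrays also stood above all others, with a change of 0.63 ± 0.16 (adjusted p = 0.0188), and the call was lost when TG tamoxifen 1, TG tamoxifen 3 or TG vehicle 2 was left out, with an adjusted p of up to 0.0664. Psma4 rose by 0.59 ± 0.16 (adjusted p = 0.0233), with 15.16 to 15.29 in TG tamoxifen and at most 14.77 elsewhere. Its call was lost when any 1 of the TG tamoxifen arrays, or TG vehicle 2, was left out, with an adjusted p of up to 0.0817. Psma1 at 0.36 ± 0.18, Psma7 at 0.25 ± 0.16 and Psma6 at 0.08 ± 0.17 did not pass.

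**Figure D2:**
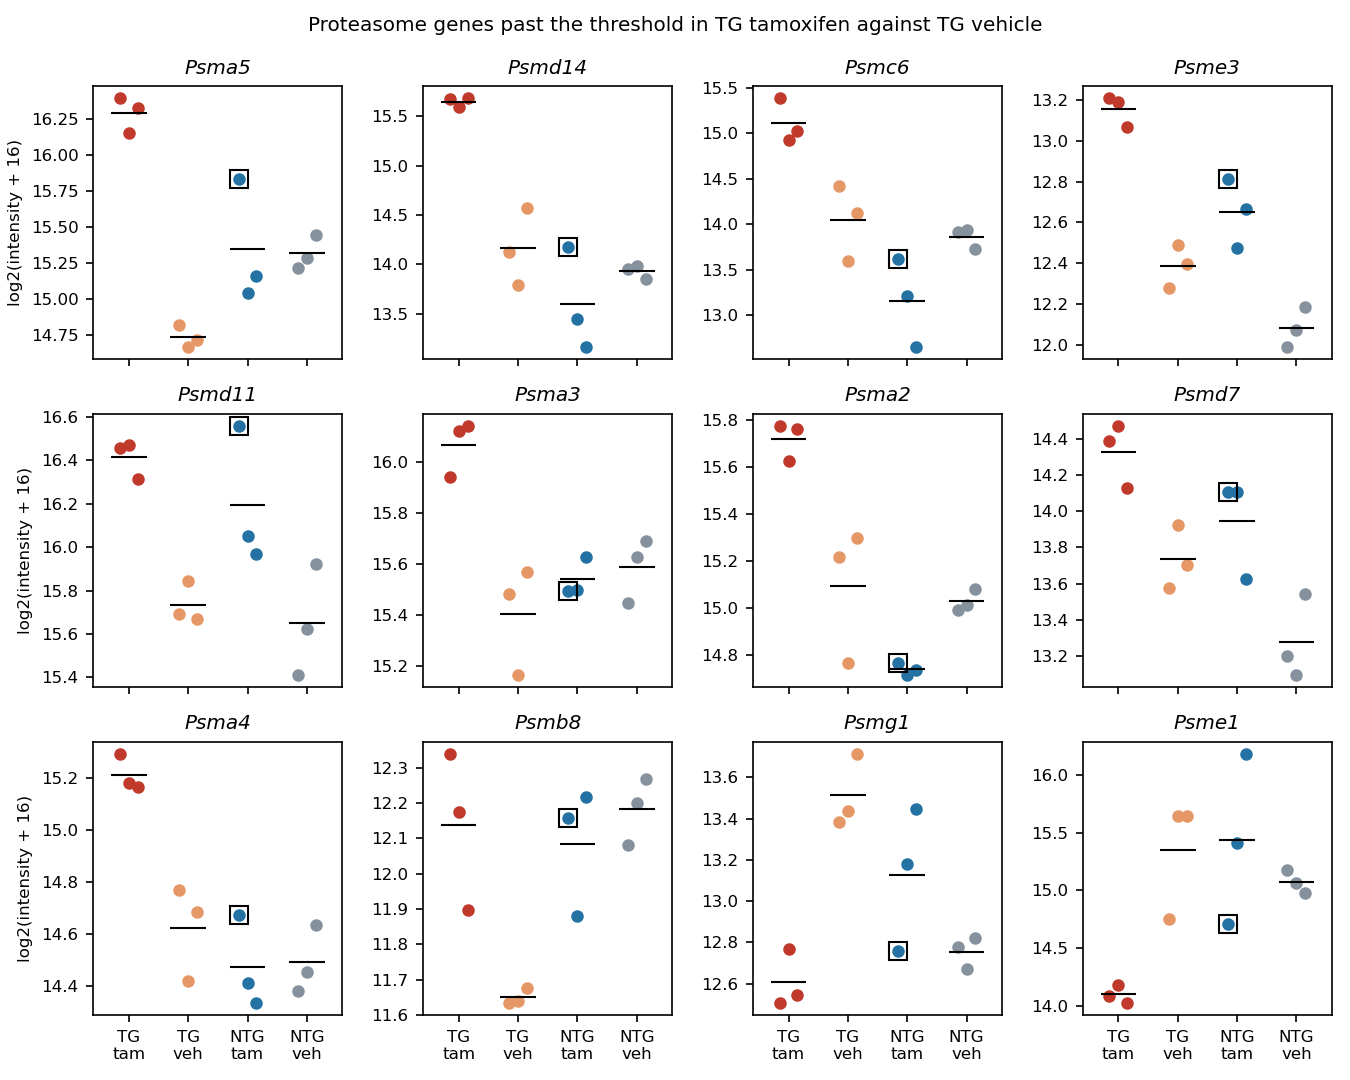
Log2(intensity + 16) on each of the 12 arrays (points) and the group mean (line) for the 12 genes past the threshold in TG tamoxifen against TG vehicle; each panel has its own vertical range, which does not start at 0. The open square marks the array labelled NTG tamoxifen 1. The TG tamoxifen points lie above all others for Psma5, Psmd14, Psmc6, Psme3, Psma3, Psma2, Psmd7 and Psma4, and below all others for Psme1.

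The beta genes include all proteolytic subunits. Of the 7 constitutive genes, 0 passed, beside 24.8% of all genes. Their changes ran from -0.19 (Psmb2) to 0.13 (Psmb4), and none of the 7 had an unadjusted p under 0.05 in limma. Psmb5, the chymotrypsin-like site, read 15.01, 14.77 and 14.93 in TG tamoxifen, 14.85, 14.91 and 15.05 in TG vehicle, 15.47, 14.90 and 15.27 in NTG tamoxifen and 14.87, 14.69 and 14.91 in NTG vehicle. Psmb6, the caspase-like site, read 15.53, 15.48 and 15.53, then 15.47, 15.20 and 15.63, then 15.72, 15.12 and 15.68, then 15.32, 15.22 and 15.45 in the same order of groups. Psmb7, the trypsin-like site, read 16.91, 16.86 and 16.97, then 16.82, 16.73 and 16.88, then 17.03, 16.81 and 17.01, then 16.71, 16.69 and 16.48. For each of these 3 catalytic genes the TG tamoxifen arrays overlapped the TG vehicle arrays, with 95% intervals of the change from -0.41 to 0.36, -0.34 to 0.49 and -0.21 to 0.42. The sign of the change turned with the deposited scaling for Psmb5 (from -0.03 to 0.01) and Psmb7 (from 0.10 to -0.07) and with median centring for Psmb5 (0.15). The difference between the alpha and beta genes as groups was not tested.

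Psmb8, Psmb9 and Psmb10 are the interferon-inducible subunits that replace Psmb5, Psmb6 and Psmb7 in the immunoproteasome. Psmb8 read 12.34, 12.17 and 11.90 in TG tamoxifen, 11.64, 11.64 and 11.68 in TG vehicle, 12.16, 11.88 and 12.22 in NTG tamoxifen and 12.08, 12.20 and 12.27 in NTG vehicle. The TG vehicle arrays were the low ones, and the TG tamoxifen arrays overlapped both NTG groups. The rise over TG vehicle was 0.49 ± 0.16 (adjusted p = 0.0496). It passed in 3 of the 12 fits that left out 1 array, those without TG tamoxifen 3, the array labelled NTG tamoxifen 1 or NTG tamoxifen 2, and the adjusted p reached 0.182 in the others. With the mean of its probe sets it was -0.16 (adjusted p = 0.867), the other probe set being below the filter. With the deposited scaling it was 0.49 and missed (adjusted p = 0.0546).

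Psmb9 read 11.13, 10.85 and 11.01 in TG tamoxifen, 10.82, 10.63 and 11.26 in TG vehicle, 10.77, 11.52 and 11.37 in NTG tamoxifen and 11.30, 11.24 and 11.07 in NTG vehicle. Psmb10 read 12.55, 12.47 and 12.33, then 12.53, 12.71 and 12.93, then 12.82, 12.78 and 13.09, then 13.17, 12.93 and 12.89 in the same order. Neither passed, at 0.09 ± 0.22 and -0.27 ± 0.17, and only 1 of the 3 inducible genes passed. Of 15 tested antigen presentation and interferon gamma target genes, 0 passed in limma in this comparison, where 24.8% of all genes did, with a median of -0.09.

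Leukocytes express the inducible subunits strongly, and leukocyte markers differed between these groups. Of 17 tested macrophage and leukocyte markers, 6 rose (Cd52, Ptprc, Ccr2, Aif1, Coro1a and Mrc1) and 0 fell, where 10.4% of all genes rose and 14.4% fell. Itgam lay below the filter. The summed intensity of the 18 markers ran from 143300 to 212700 on the TG tamoxifen arrays, 73080 to 137900 on TG vehicle, 68640 to 76280 on NTG tamoxifen and 74340 to 85210 on NTG vehicle. Of 11 T, B and NK cell markers on the array only 1 lay above the filter, and it did not pass; their sums were 4540 to 5245, 6154 to 6374, 4492 to 4537 and 2819 to 4944 in the same order. The arrays read whole ventricle, in which fewer cells of a type and less RNA per cell cannot be told apart, and the part of other cells in the proteasome values was not tested.

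In the cap, counted with the base chaperones Psmd5, Psmd9 and Psmd10, 4 of 20 genes rose (20%, beside 10.4% of all genes). None fell, beside 14.4% of all genes. The ATPase ring unfolds the substrate and opens the gate, and 1 of its 6 genes passed. Psmc6 read 15.38, 14.92 and 15.03 in TG tamoxifen, 14.42, 13.60 and 14.12 in TG vehicle, 13.62, 13.21 and 12.65 in NTG tamoxifen and 13.91, 13.94 and 13.73 in NTG vehicle. The TG tamoxifen arrays were the highest, and the NTG tamoxifen arrays lay below NTG vehicle. The rise over TG vehicle was 1.06 ± 0.27 log2 units (2.09-fold, adjusted p = 0.0159), and it missed the threshold without TG tamoxifen 1 or TG vehicle 2, with an adjusted p of up to 0.0661. The other ATPase genes lay between -0.32 (Psmc5) and 0.11 (Psmc4), and 0 of those 5 passed.

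Among the 14 non-ATPase genes, the 3 that rose encode subunits of the lid, the part of the cap that removes ubiquitin. Psmd14, the lid's deubiquitinase, read 15.67, 15.60 and 15.68 in TG tamoxifen, 14.12, 13.79 and 14.57 in TG vehicle, 14.18, 13.45 and 13.16 in NTG tamoxifen and 13.95, 13.98 and 13.85 in NTG vehicle. The 3 TG tamoxifen arrays lay close together and well above every other array. The rise over TG vehicle was 1.49 ± 0.26 (adjusted p = 0.00347), and it passed in each of the 12 fits that left out 1 array. Psmd7, the inactive partner with which Psmd14 forms a dimer, read 14.39, 14.47 and 14.13, then 13.57, 13.92 and 13.70 in TG vehicle, 14.11, 14.11 and 13.62 in NTG tamoxifen and 13.20, 13.09 and 13.54 in NTG vehicle. Its rise was 0.60 ± 0.20 (adjusted p = 0.0461). The TG tamoxifen arrays were the highest of the 12, just above the first 2 of NTG tamoxifen. The call was kept in 4 of the 12 fits that left out 1 array and lost when any TG tamoxifen or TG vehicle array, NTG vehicle 1 or NTG vehicle 2 was left out, with an adjusted p of up to 0.138. With the mean of its probe sets it was -0.41 (adjusted p = 0.452), the other probe sets being below the filter.

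Psmd11, a lid scaffold subunit that contacts the core, read 16.46, 16.47 and 16.31 in TG tamoxifen, 15.69, 15.84 and 15.67 in TG vehicle, 16.56, 16.05 and 15.97 in NTG tamoxifen and 15.41, 15.62 and 15.92 in NTG vehicle. The array labelled NTG tamoxifen 1 was the highest of the 12, so TG tamoxifen overlapped NTG tamoxifen. The rise over TG vehicle was 0.68 ± 0.19 (adjusted p = 0.0269) and it was lost when any 1 of the TG tamoxifen arrays, TG vehicle 1 or TG vehicle 3 was left out, with an adjusted p of up to 0.081. It was 0.47 and did not pass with the mean of its probe sets (adjusted p = 0.0917). The other lid genes tested, Psmd3, Psmd6, Psmd8, Psmd12 and Psmd13, lay between -0.27 and 0.25 and did not pass. Psmd1 and Psmd2, the large scaffold subunits of the base, were at -0.06 ± 0.17 and -0.39 ± 0.21, and Psmd4, a ubiquitin receptor, was at -0.30 ± 0.20.

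Psmd5, Psmd9 and Psmd10 are chaperones that help the ATPase ring form and leave the finished particle. Psmd10 was at 0.47 ± 0.26, Psmd5 at 0.46 ± 0.23 and Psmd9 at -0.26 ± 0.21, and none passed. Psmd5 nevertheless read 12.72 to 12.81 in TG tamoxifen and at most 12.54 on the other 9 arrays. Counted over the members tested, the 3 TG tamoxifen arrays stood above all other 9 arrays for 10 of 45 genes, or 22.2%, beside 11.9% of all genes. These were Psma2, Psma3, Psma4, Psma5, Psmc6, Psmd5, Psmd7, Psmd12, Psmd14 and Psme3. They stood below all others for Psme1 alone, 2.22% of the members beside 12.8% of all genes.

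Of the activators, Psme3 rose and Psme1 fell. Psme1, which forms a ring with Psme2 that caps the core and is induced by interferon gamma, read 14.08, 14.18 and 14.03 in TG tamoxifen, 14.75, 15.64 and 15.64 in TG vehicle, 14.71, 15.41 and 16.18 in NTG tamoxifen and 15.18, 15.06 and 14.98 in NTG vehicle. Every TG tamoxifen array was below every other array, and the spread within TG vehicle and NTG tamoxifen was wide. The fall against TG vehicle was -1.25 ± 0.33 log2 units (2.38-fold lower, adjusted p = 0.0203), and it was lost when TG tamoxifen 1, TG tamoxifen 3, TG vehicle 2 or TG vehicle 3 was left out, with an adjusted p of up to 0.0723. Psme3, the nuclear activator that works on its own, read 13.21, 13.19 and 13.07 in TG tamoxifen, 12.28, 12.49 and 12.40 in TG vehicle, 12.81, 12.48 and 12.66 in NTG tamoxifen and 11.99, 12.07 and 12.19 in NTG vehicle. TG tamoxifen was highest and NTG vehicle lowest, and the groups between them overlapped each other but neither of those. The rise over TG vehicle was 0.77 ± 0.15 (1.70-fold, adjusted p = 0.00561) and passed in each of the 12 fits that left out 1 array, but with the mean of its probe sets it was 0.45 and did not pass (adjusted p = 0.192).

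Psme2 was no member, since its probe set also carries the symbol Psme2b. That probe set read 14.53, 14.46 and 14.46 in TG tamoxifen, 14.02, 14.03 and 14.14 in TG vehicle, 14.63, 14.38 and 14.46 in NTG tamoxifen and 14.02, 13.97 and 14.17 in NTG vehicle. Both tamoxifen groups were above both vehicle groups there, a pattern that Psme1 did not share, and this was not tested. Psme4, the large single-chain activator, read 15.41, 15.14 and 15.52, then 15.96, 15.37 and 15.92, then 15.15, 16.07 and 16.06, then 15.75, 15.96 and 16.08 in the order of groups above. Psmf1, the core inhibitor, read 11.57, 11.88 and 12.06, then 12.01, 12.45 and 12.36, then 12.37, 11.74 and 12.05, then 11.69, 11.46 and 11.51. Neither passed, at -0.39 ± 0.26 and -0.44 ± 0.21, and for both the TG groups overlapped.

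The assembly chaperones Psmg1 to Psmg4 build the alpha ring, Psmg1 as a dimer with Psmg2. Psmg1 read 12.51, 12.77 and 12.55 in TG tamoxifen, 13.39, 13.44 and 13.71 in TG vehicle, 12.76, 13.18 and 13.45 in NTG tamoxifen and 12.78, 12.67 and 12.82 in NTG vehicle. The TG vehicle arrays were above all TG tamoxifen and NTG vehicle arrays, which overlapped each other. The fall was -0.91 ± 0.19 log2 units (1.87-fold lower, adjusted p = 0.00791) and passed in each of the 12 fits that left out 1 array. Its dimer partner Psmg2 read 13.08, 13.35 and 13.11, then 12.94, 13.28 and 13.59, then 12.75, 12.34 and 12.80, then 12.69, 12.60 and 12.53 in the order of groups above. Psmg3 read 11.46, 11.49 and 11.69, then 11.06, 11.56 and 11.04, then 11.63, 10.63 and 10.70, then 11.47, 10.85 and 10.84. Psmg4 read 12.10, 12.50 and 12.32, then 12.31, 12.13 and 11.81, then 12.45, 12.63 and 11.84, then 12.18, 12.14 and 12.22. None of these 3 passed, at -0.09 ± 0.20, 0.33 ± 0.28 and 0.23 ± 0.22, and Psmg2 turned to 0.10 with median centring.

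**Figure D3:**
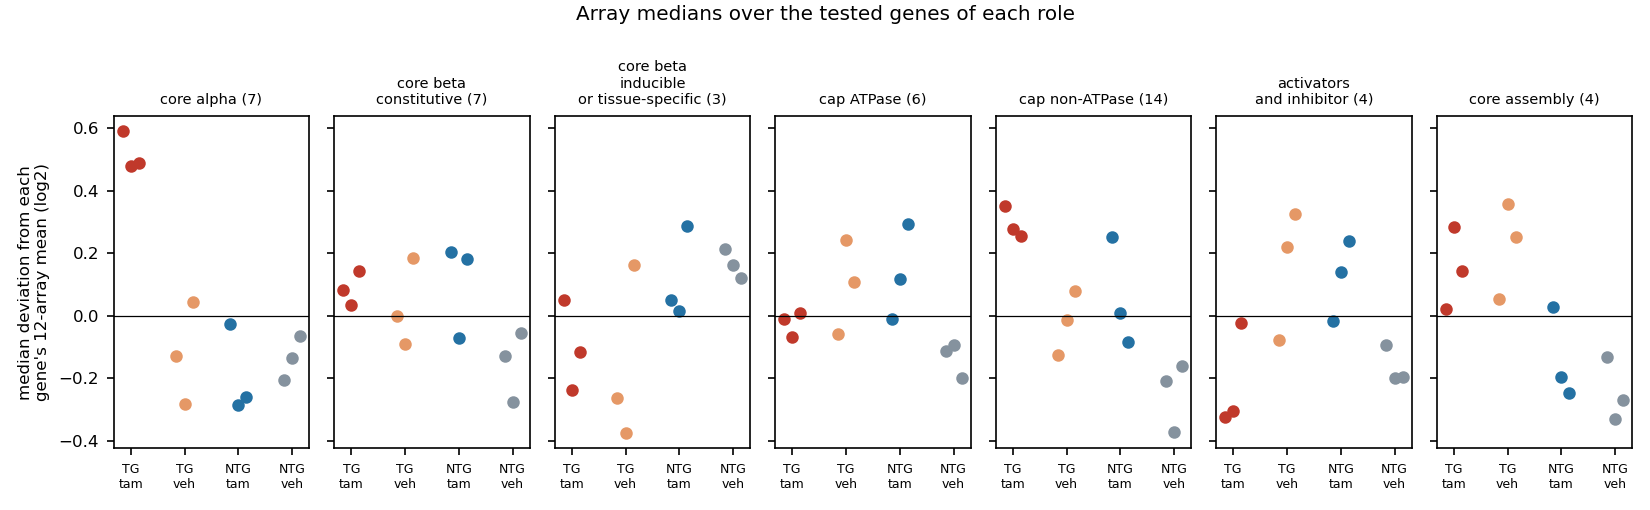
For each role, the median over its tested genes (number in parentheses) of the deviation from the gene's mean over 12 arrays, in log2 units, 1 point per array. Core alpha genes stood at 0.48 to 0.59 on the TG tamoxifen arrays and at 0.05 or less on all others. The non-ATPase cap genes stood at 0.257 to 0.353 on the TG tamoxifen arrays, just above the highest other array at 0.252. For the constitutive beta and ATPase genes the TG tamoxifen arrays lay within the range of the others.

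Of the 45 genes, 20 had more than 1 probe set above the filter, which allows a check within the gene. In a test over all such probe sets, the other probe set of Psma5 rose as well (1.34, adjusted p = 0.00956). The 2 other probe sets of Psmc6 were at 1.02 (adjusted p = 0.0953) and 0.95 (0.0661), close to the 1.06 of the one that stood for the gene. The 5 probe sets of Psmd11 disagreed, from -0.22 to 0.84, with calls for the one that stood for it and for another at 0.84 (adjusted p = 0.00699). Psme3 was at 0.77 on one probe set and -0.01 on the other, and Psma3 at 0.66 and 0.12. For Psmf1 one of the other probe sets fell by -0.91 (adjusted p = 0.00777) beside -0.44 on the one that stood for the gene. The 6 probe sets of Psme4 ran from -0.54 to 0.64. The probe sets that stood for Psma6, Psmc2, Psmd11 and Psme4 are of a kind that may also match related transcripts.

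**Figure D4:**
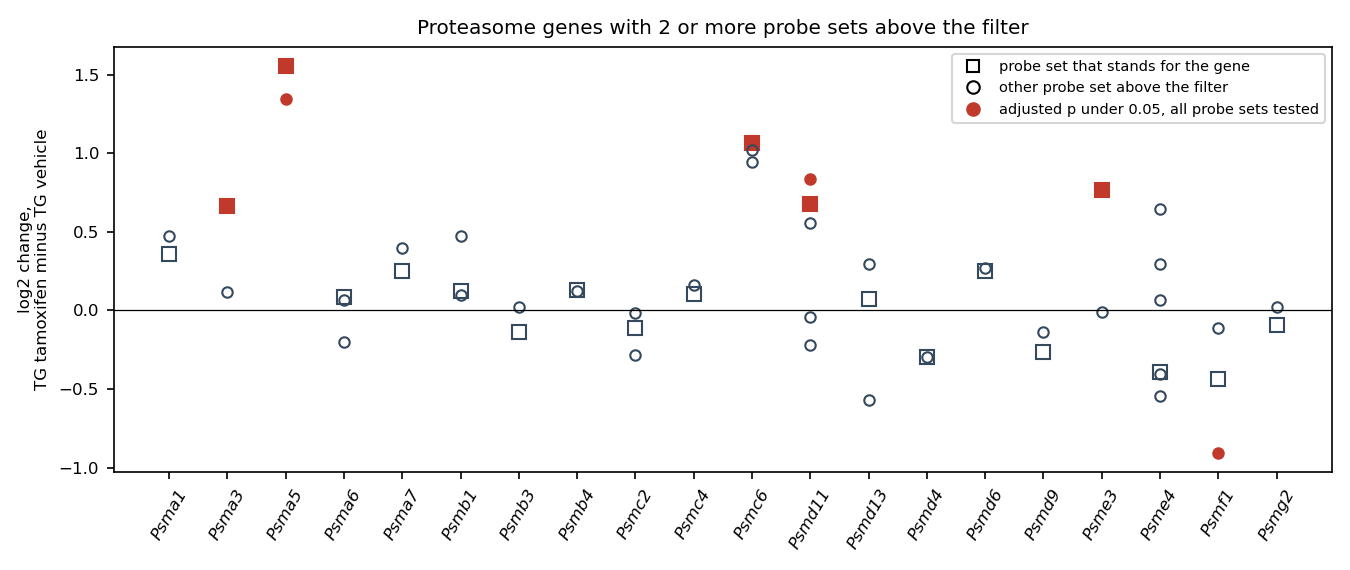
Log2 change (TG tamoxifen minus TG vehicle) of every probe set above the filter for the 20 genes that have more than 1, with the probe set that stands for the gene as a square. Filled red marks an adjusted p under 0.05; both Psma5 probe sets are filled, while those of Psme3 and Psma3 lie apart.

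Tamoxifen alone was examined in NTG tamoxifen against NTG vehicle. Of the 45 proteasome genes 0 passed in limma, beside 4.32% of all genes, and 14 had an unadjusted p under 0.05. Those with the smallest p were Psme3 at 0.57 ± 0.15 (adjusted p = 0.0568), Psmd7 at 0.67 ± 0.20 (0.0769) and Psmb3, a structural beta subunit, at 0.52 ± 0.17 (0.0976). The median change was 0.19 and 32 of 45 genes lay above 0 (71.1%, beside 49.3% of all genes). With median centring, which moved the all-gene median from -0.01 to -0.16, 23 did, beside 3975 of 11163 genes. With the array labelled NTG tamoxifen 1 left out, the count that passed was again 0, beside 3.75% of all genes. Psme3 alone passed with TG vehicle 1 left out, and Psme3 and Psmd8, 2 genes, with NTG tamoxifen 2 left out.

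Whether the drug acted differently in TG and NTG hearts was tested as the difference between the tamoxifen effects. It passed for 6 proteasome genes, 13.3% of those tested beside 14.3% of all genes. It was more positive in TG for 4 genes, beside 7.5% of all genes, and more negative for 2, beside 6.76%. The 4 were Psmd14 by 1.82 ± 0.37 (adjusted p = 0.0136 in limma), Psmc6 by 1.76 ± 0.38 (0.016), Psma5 by 1.52 ± 0.29 (0.0122) and Psma2 by 0.92 ± 0.23 (0.0264). The 2 were Psmg1 at -1.28 ± 0.27 (0.0155) and Psme1 at -1.61 ± 0.47 (0.0431). For Psmd14 the change with tamoxifen was 1.49 in TG and -0.33 in NTG, and for Psmc6 it was 1.06 and -0.70. Psme3 and Psmd7, which rose in TG, were at 0.57 and 0.67 in NTG, and their differences of 0.20 ± 0.21 and -0.07 ± 0.28 did not pass.

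Without the array labelled NTG tamoxifen 1 the same 6 genes and Psma4 (0.70 ± 0.22, adjusted p = 0.0426) passed, beside 22.8% of all genes (11.8% more positive and 11% more negative), with Psmd14 at 2.11, Psmc6 at 1.99 and Psma5 at 1.77. Psma5, Psmc6, Psmd14 and Psmg1 passed in each of the 12 fits that left out 1 array. Psma5 was at 0.58 and did not pass with the mean of its probe sets, which include a probe set below the filter (adjusted p = 0.43). With no filter on low signal 2 genes passed, Psma5 and Psmd14. Psma2 was lost in 6 of the 12, those without TG tamoxifen 1, TG tamoxifen 3, NTG tamoxifen 3 or any 1 NTG vehicle array, and Psme1 kept the call in 2, those without TG vehicle 1 or the array labelled NTG tamoxifen 1, with adjusted p values of up to 0.0653 and 0.0978. The count rose to 11 without TG vehicle 1. With median centring, which moved the all-gene median of the difference from -0.07 to 0.18, it was 7, all more positive in TG. Of all genes, 1518 were then more positive and 335 more negative, against 838 and 755 before. Psmg1 (-0.89, adjusted p = 0.051) and Psme1 (-1.29, 0.0789) did not pass with median centring.

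**Figure D5:**
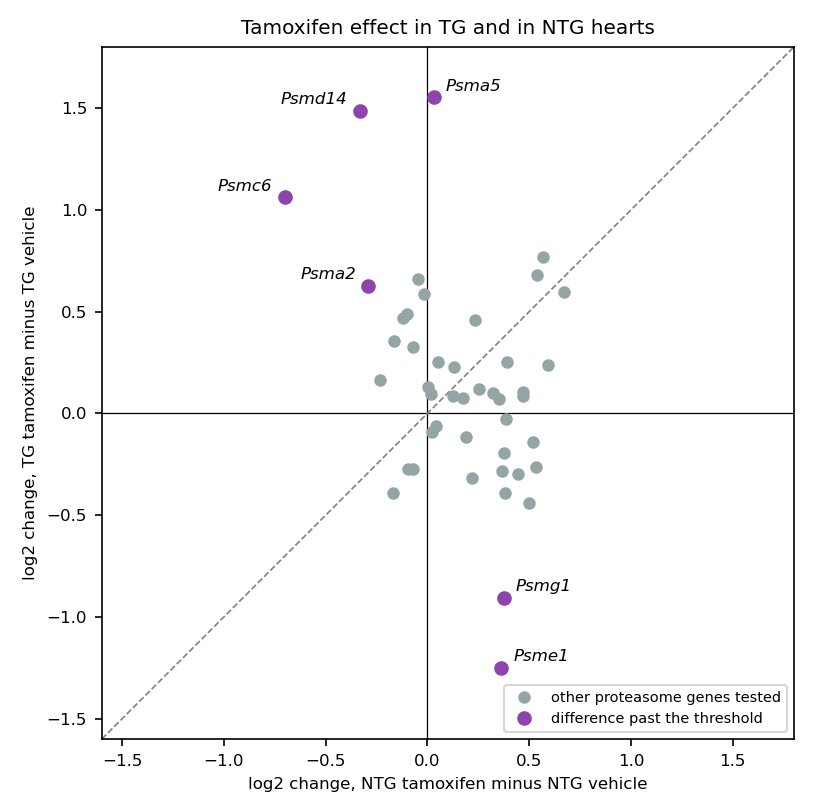
Log2 change with tamoxifen in TG (vertical axis) against that in NTG hearts (horizontal axis) for the 45 proteasome genes tested; the dashed line marks equal change. Purple marks the 6 genes whose difference between the effects passed the threshold, 4 above the line and 2 below it.

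The promoters of these 6 genes are shown because their response to the drug differed between the genotypes and ATF6 is known to bind the ER stress element. Each is the stretch of 250 bases before the gene's start, 5′ to 3′ on the gene's strand, from RefSeq on GRCm38.p6. They lie at chr3:108256676-108256925 (Psma5, plus strand), chr2:61711444-61711693 (Psmd14, plus), chr14:45329574-45329823 (Psmc6, plus), chr13:14612992-14613241 (Psma2, plus), chr14:55578244-55578493 (Psme1, plus) and chr16:95990961-95991210 (Psmg1, minus). Capitals mark matches, on either strand, to the CCAAT box, to the motif CCACG and to TGACNNNGC, the core of the antioxidant response element.
Psma5: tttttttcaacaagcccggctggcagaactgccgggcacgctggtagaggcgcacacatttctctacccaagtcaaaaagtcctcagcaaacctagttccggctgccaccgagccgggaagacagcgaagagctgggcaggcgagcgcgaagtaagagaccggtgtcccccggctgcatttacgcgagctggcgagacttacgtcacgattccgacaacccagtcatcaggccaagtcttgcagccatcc
Psmd14: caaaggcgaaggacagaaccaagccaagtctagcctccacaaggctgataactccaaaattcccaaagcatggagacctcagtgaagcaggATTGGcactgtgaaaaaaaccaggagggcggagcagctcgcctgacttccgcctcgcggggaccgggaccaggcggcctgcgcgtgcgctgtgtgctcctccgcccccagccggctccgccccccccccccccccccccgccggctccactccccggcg
Psmc6: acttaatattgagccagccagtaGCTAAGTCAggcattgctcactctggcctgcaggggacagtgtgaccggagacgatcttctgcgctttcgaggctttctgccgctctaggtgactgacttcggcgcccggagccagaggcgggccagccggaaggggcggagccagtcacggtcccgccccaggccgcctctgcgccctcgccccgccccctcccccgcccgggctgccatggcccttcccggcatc
Psma2: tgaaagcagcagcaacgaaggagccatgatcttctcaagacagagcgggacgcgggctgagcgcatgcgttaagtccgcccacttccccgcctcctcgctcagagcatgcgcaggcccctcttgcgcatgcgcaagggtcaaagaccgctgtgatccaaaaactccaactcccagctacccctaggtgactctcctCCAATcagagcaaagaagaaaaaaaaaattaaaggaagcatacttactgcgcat
Psme1: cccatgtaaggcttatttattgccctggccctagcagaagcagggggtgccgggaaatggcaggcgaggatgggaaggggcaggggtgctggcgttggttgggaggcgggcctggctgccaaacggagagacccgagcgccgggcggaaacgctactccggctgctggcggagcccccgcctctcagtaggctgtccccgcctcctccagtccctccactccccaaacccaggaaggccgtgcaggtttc
Psmg1: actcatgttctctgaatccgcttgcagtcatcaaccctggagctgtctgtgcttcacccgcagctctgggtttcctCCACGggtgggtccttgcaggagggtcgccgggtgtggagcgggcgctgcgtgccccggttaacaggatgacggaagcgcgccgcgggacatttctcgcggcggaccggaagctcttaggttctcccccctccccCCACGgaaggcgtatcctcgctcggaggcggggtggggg

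The ER stress element, which is the CCAAT box, 9 bases of any kind and then CCACG, and so overlaps both of those motifs, was in 0 of the 39 members with a promoter in the table and in 0.113% of all 32851 promoters of that length. CCACG alone was in 14 of the 39 (35.9%) beside 28.343% of all promoters, and CCAAT alone was also in 14 (35.9%) beside 33.85%. TGACNNNGC was in 5 (12.8%) beside 10.161%. In the sequences printed above, Psmd14 holds ATTGG, the CCAAT box on the other strand, from 159 bases before the start, Psma2 holds CCAAT from 54 bases before it, and Psmg1 holds CCACG from 174 and from 39 bases before it. Psmc6 holds GCTAAGTCA, a match to the antioxidant-type letters on the other strand, from 227 bases before its start. The windows of Psma5 and Psme1 hold no match, which says only that these letters are not in these windows. Of the 9 genes that rose and have a promoter in the table, 4 held CCACG (Psma3, Psma4, Psmd11 and Psme3), 4 held CCAAT (Psma2, Psma3, Psmd14 and Psme3) and 1 held the antioxidant-type letters.

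TG vehicle against NTG vehicle asks what the fusion does without the drug. Psmb2, a structural beta subunit, was the single member called, 2.22% of those tested beside 3.63% of all genes (1.39% higher). It read 14.50, 14.43 and 14.83 in TG vehicle, 13.86, 13.80 and 13.82 in NTG vehicle, 14.41, 14.35 and 14.43 in TG tamoxifen and 14.13, 14.05 and 14.42 in NTG tamoxifen. Every TG array was above every NTG vehicle array, and so was every NTG tamoxifen array. The difference was 0.76 ± 0.16 (adjusted p = 0.0343), and it was lost when any 1 TG tamoxifen or NTG vehicle array, or TG vehicle 3, was left out, with an adjusted p of up to 0.12. The median difference over the members was 0.22 beside 0.01 over all genes. Of the 45 members, 35 lay above 0 (77.8%, beside 51.1% of all genes), 36 with the deposited scaling and 34 with median centring. Without the array labelled NTG tamoxifen 1, 7 members passed beside 7.28% of all genes (3.1% higher and 4.18% lower). Psma1 (0.73), Psmb2, Psmc1 (0.65), Psmf1 (0.72) and Psmg1 (0.76) were higher and Psma5 (-0.58) and Psmd3 (-0.68) lower. The deposited scaling called Psmb2 as higher and Psmd3 as lower, and median centring called Psmd3 alone.

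TG tamoxifen against NTG tamoxifen compares the genotypes under the drug. It shares the TG tamoxifen arrays with the first comparison, so its values stand beside that one's and do not support it. Of the 45 genes, 17 passed (37.8%, beside 39.5% of all genes), 13 higher (28.9%, beside 18.9%) and 4 lower (8.89%, beside 20.5%). Psmd14 was higher by 2.05 ± 0.26 (4.15-fold, adjusted p = 0.000329) and Psmc6 by 1.95 ± 0.27 (3.86-fold, 0.000464), against 1.49 and 1.06 over TG vehicle. Psma1, an alpha-ring subunit, read 15.39, 15.17 and 15.47 in TG tamoxifen, 15.06, 14.63 and 15.27 in TG vehicle, 14.23, 14.04 and 14.02 in NTG tamoxifen and 14.34, 14.23 and 14.20 in NTG vehicle. Its TG arrays were above all NTG arrays whatever the treatment. It was higher by 1.25 ± 0.18 over NTG tamoxifen (2.38-fold, adjusted p = 0.000589).

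Among the other genes higher in that comparison were the alpha genes Psma2 (0.98), Psma5 (0.94), Psma4 (0.74) and Psma3 (0.53), which makes 5 of 7 alpha genes. Of these, Psma5 was at 0.58 (adjusted p = 0.195) and Psma3 at 0.03 (0.895) with the mean of probe sets, and neither passed. The mean for Psma5 includes a probe set below the filter. In the cap they were Psmd6 (0.81) and Psmd12 (0.73), both lid subunits, and the base chaperones Psmd10 (1.29) and Psmd5 (0.74). Psme3 (0.50) and Psmg2 (0.55) were higher too. The 4 lower genes were Psme1 (-1.33 ± 0.33, adjusted p = 0.00848), the lid gene Psmd3 (-0.88), the ubiquitin receptor Psmd4 (-0.57) and Psmg1 (-0.52). Of the constitutive beta genes, 0 of 7 passed in limma and 1 had an unadjusted p under 0.05. Psmb8, Psmd11 and Psmd7, which rose over TG vehicle, were at 0.05, 0.22 and 0.38 here and did not pass.

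Without the array labelled NTG tamoxifen 1, 14 were higher and 4 lower, beside 42.9% of all genes (20.9% higher and 21.9% lower), with Psmg3 (0.88) added as higher, Psme4 (-0.71) added as lower and Psmd4 (-0.53, adjusted p = 0.0783) lost. The count was 11 without TG tamoxifen 2 or TG tamoxifen 3, and of the 17 genes Psma3, Psmd4, Psmd5, Psmd6, Psme3, Psmg1 and Psmg2 were lost in at least 1 of the 12 fits that left out 1 array, with an adjusted p of up to 0.177. The split was 13 higher and 2 lower with the deposited scaling, where all genes were 1985 higher and 2562 lower. With median centring it was 17 higher and 2 lower, where all genes were 2553 higher and 1707 lower. Psmd4 and Psmg1 did not pass with either scaling. With no filter and with the mean of probe sets 11 passed, and Psma3, Psmd4, Psme3, Psmg1 and Psmg2 were lost in both.

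Genes that work with the proteasome were counted from 2 lists. Of 21 tested partners and regulators, 3 rose in TG tamoxifen against TG vehicle, where 10.4% of all genes did: Vcp, the ATPase that extracts ubiquitinated proteins from the ER membrane (1.71 ± 0.32, adjusted p = 0.00487), the shuttle Rad23b (0.84 ± 0.21, 0.0163) and Usp14, a deubiquitinase bound to the cap (0.91 ± 0.28, 0.0353). Ecpas, a scaffold that can hold core and cap together, fell (-0.50 ± 0.15, 0.0322), where 14.4% of all genes did. The median of the list was 0.16.  Against NTG tamoxifen, 7 were higher, led by Uchl5, another deubiquitinase of the cap, at 1.91 ± 0.28, and 4 lower, where 18.9% of all genes were higher and 20.5% lower. Without the array labelled NTG tamoxifen 1 these were 8 and 2, where 20.9% of all genes were higher and 21.9% lower. Of 11 tested ubiquitin genes and activating or conjugating enzymes, 2 rose over TG vehicle, where 10.4% of all genes did. They were Ube2d3 (1.11 ± 0.33, 0.0302) and Uba6 (0.63 ± 0.20, 0.0402), and the list median was 0.04.

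Markers of the other cells of the ventricle also differed between TG tamoxifen and TG vehicle, and their part in the proteasome values was not tested. The counts that follow stand beside 10.4% of all genes that rose and 14.4% that fell in this comparison. Of 15 cardiomyocyte markers, 1 rose (Csrp3) and 4 fell (Mybpc3, Ldb3, Tcap and Ryr2). Their summed intensity was 3562000 to 3675000 on the TG tamoxifen arrays, 3898000 to 4032000 on TG vehicle, 3857000 to 4102000 on NTG tamoxifen and 4158000 to 4229000 on NTG vehicle. Of 12 endothelial markers 5 fell (Tie1, Kdr, Ramp2, Emcn and Cdh5), and in the same order of groups their sums were 59210 to 64280, 73910 to 99820, 78700 to 96190 and 94380 to 106100. Of 10 fibroblast markers Col3a1 rose and Tcf21 and Dcn fell, with sums of 231800 to 258700, 263400 to 313300, 166000 to 214500 and 216900 to 250800. Of 7 tested smooth muscle and pericyte markers 0 passed in limma, and the sums of the 8 on the array were 138500 to 183500, 144300 to 155700, 106300 to 148600 and 215300 to 270000. Of 4 adipocyte markers on the array the 1 above the filter, Cidea, fell, with sums of 5607 to 8144, 10780 to 16290, 9605 to 19710 and 11680 to 14960.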

How the data were processed

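The intensities the authors deposited are linear, 1 per probe set and array. With 2% trimmed from both tails, each array had the same mean of 2500.02, a scaling to a common target; the summarisation software is not given in the sources used here. Here log2(intensity + 16) was quantile normalized, which the arrays' unequal medians called for. Fold changes on this scale understate those of dim genes. Of a gene's probe sets with 1 symbol in the platform annotation, the one with the highest mean stood for it, and genes below the 50th percentile of probe sets (intensity 670.3) were left out.

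Group means over 12 arrays were fitted with limma 3.58.1 (lmFit, eBayes, two-sided) in R 4.3.3, with 8 residual and 3.55 prior degrees of freedom. Benjamini-Hochberg adjustment ran over all 11166 genes, with a threshold of 0.05, and ± is the SE. The script was tested on simulated data. Groups came from the titles. Each replicate was a separate heart, per the labels.

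The members, the marker and pathway lists and the rule for the genes given on every array (up to 3 called genes of each role by adjusted p, the inducible and catalytic beta genes, activators, inhibitor and assembly factors, and up to 3 called genes in each other comparison) were chosen with earlier results of these data known. Alternatives changed the scaling, offset, filter, probe set rule, arrays, block and covariate.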

Additional observations from a re-analysis of the deposited data

Results flagged for a closer look

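The tamoxifen effect differed between TG and NTG hearts past the threshold of limma's test of the difference itself for 6 proteasome genes, each from 3 arrays a group. These were 13.3% of the members tested, beside 14.3% of all genes, so the share was near the background. The effect in TG minus that in NTG was 1.82 log2 units for Psmd14, the deubiquitinase of the cap, and 1.76 for Psmc6, an ATPase of the cap. It was 1.52 for Psma5 and 0.92 for Psma2, both of the alpha ring. It was -1.61 for the activator Psme1 and -1.28 for the assembly chaperone Psmg1. The first 4 were above 0 and the last 2 below 0 in every fit that left out 1 array, but the adjusted p of Psma2 and Psme1 did not stay under 0.05.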

How the results depend on the processing

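In TG tamoxifen against TG vehicle, 12 members passed; the count was 6 with no filter, 7 with the mean of a gene's probe sets, 0 with TG vehicle 3 taken as TG tamoxifen and 0 with the actin ratio as covariate, and 5 to 12 when 1 array was left out. With the mean of probe sets Psmb8 turned to -0.16 and Psmd7 to -0.41, through probe sets below the filter. In NTG tamoxifen against NTG vehicle the count of 0 became 2 with a trended, robust prior and 0 to 2 with 1 array left out. In TG vehicle against NTG vehicle the count of 1 became 2 with the deposited scaling, 4 with every probe set tested and 5 with the trended prior. It became 0 with no filter, a filter at the 25th percentile, only the groups compared, TG vehicle 3 moved, the replicate block or the actin covariate, where 11, 13, 12, 9, 12 and 2 members in that order had an unadjusted p under 0.05 in limma, and 0 to 7 with 1 array left out. In TG tamoxifen against NTG tamoxifen the 17 became 11 with no filter, with the mean of probe sets and with TG vehicle 3 moved, and 11 to 18 with 1 array left out. For the difference between the tamoxifen effects the 6 became 2 with no filter, 0 with TG vehicle 3 moved or the actin covariate (8 and 1 at an unadjusted p under 0.05 in limma), and 4 to 11 with 1 array left out; a fit of only the groups compared cannot give this difference. Where the cause of such a shift is not named, it was not tested. Most of these counts stand without the share of all genes in the same fit, so a shift cannot be read as particular to the members. Same-numbered arrays of different groups did not deviate together (correlations from -0.09 to 0.09 over 18 pairs), so the replicate number was not taken as a pairing; as a block it gave 10, 0, 0, 14 and 6 members in the order above, without Psmb8 and Psmd7 in the first, Psmb2 in the third and Psmd4, Psmg1 and Psmg2 in the fourth. Of 1143 recomputed gene values, 923 kept direction and call, 202 lost the call, 1 gained it, 15 that were never called changed sign and 2 reversed.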

Other observations

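On the array labelled NTG tamoxifen 1, whose Esr1 and Hspa5 levels go against its label, the proteasome genes were mixed. Psma5 read 15.83, above the other NTG tamoxifen arrays at 15.05 and 15.17, and Psme1 read 14.71, below them at 15.41 and 16.18. Psmg1 read 12.76 there, below 13.18 and 13.45, and Psmd5 read 12.49, above 11.68 and 11.88. Psma2 read 14.76 there, beside 14.72 and 14.74, and Psma3 15.49, beside 15.50 and 15.63. Psmd14 read 14.18, above 13.45 and 13.16 but below the TG tamoxifen arrays at 15.60 to 15.68. No test was made of this single array.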
